A study of Mus musculus with 10 samples.

Results

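Fibroblast growth factor (FGF) signalling in the mandibular prominence (MNP), the embryonic swelling that forms the lower jaw and tongue, was followed through 10 genes chosen by name from the 33641 gene symbols listed. They were the ligands Fgf8, Fgf9 and Fgf10, the receptors Fgfr1 and Fgfr2, the feedback inhibitors Spry1, Spry2, Spry4 and Dusp6, and the transcription factor gene Etv4. All 10 had counts in every library and passed the filter on low counts, which left 17477 genes. RNA was taken from MNPs of CD1 mouse embryos at embryonic day 10.5 in 3 genotypes. These were wild-type (WT), embryos with Wnt1-Cre and both floxed Hand2 alleles, Hand2f/f;Wnt1-Cre (called Hand2 cKO), and embryos with Wnt1-Cre and floxed alleles of both Gli genes, Gli2f/f;Gli3f/f;Wnt1-Cre (called Gli2/3 cKO). Of 10 samples in the labels, 6 were analysed here, WT 3 and 4, Hand2 cKO 1, 2 and 3, and Gli2/3 cKO 3, which has no replicate. Wnt1-Cre acts in neural crest cells, so the mesenchyme derived from them lacks the floxed genes while epithelium, endothelium, blood and muscle precursors keep them. The labels state no Cre for WT, and the sources used here do not say whether embryos were pooled. For mutants kept to later stages the study's methods describe adrenergic drugs in the drinking water of the dams, and whether these dams received them is likewise not given. P-values therefore measure the spread between these samples, which may be technical.

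FGF ligands bind receptor tyrosine kinases on neighbouring cells together with heparan sulphate, and the receptors activate the Ras to ERK relay. ERK activity switches on Etv4 and related factors and, in negative feedback, the Sprouty genes, which dampen the relay, and Dusp6, a phosphatase that inactivates ERK. In the early jaw Fgf8 and Fgf9 are made chiefly by the oral epithelium and support survival and patterning of the underlying mesenchyme, whereas Fgf10 is a mesenchymal ligand that acts on epithelium. Hand2 binds E-box sequences and Gli2 and Gli3 are the transcription factors of the Hedgehog pathway. The question put to these data was whether ligand, receptor or feedback gene levels differed in the MNP when neural crest cells lacked Hand2 or Gli2 and Gli3.

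Promoters from RefSeq (GRCm38.p6) matched 6 of the 10 genes (Spry1, Fgfr2, Dusp6, Fgf10, Fgf9 and Spry2). Fgf8, Fgfr1, Spry4 and Etv4 were not matched. The 250 bases before the transcription start are printed for Spry2, the gene that differed from WT most clearly in both mutants, for Dusp6, the ERK phosphatase, and for Fgfr2, a receptor lower in both mutants, with E-boxes in capitals. Spry2 is given from the minus strand of chr14:105896820-105897069, Dusp6 from the plus strand of chr10:99262981-99263230 and Fgfr2 from the minus strand of chr7:130266809-130267058.
Spry2: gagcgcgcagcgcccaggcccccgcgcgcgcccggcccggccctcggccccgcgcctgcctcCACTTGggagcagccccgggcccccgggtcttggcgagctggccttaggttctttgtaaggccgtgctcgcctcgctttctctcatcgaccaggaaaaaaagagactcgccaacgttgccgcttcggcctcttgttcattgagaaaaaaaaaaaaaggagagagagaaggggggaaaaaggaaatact
Dusp6: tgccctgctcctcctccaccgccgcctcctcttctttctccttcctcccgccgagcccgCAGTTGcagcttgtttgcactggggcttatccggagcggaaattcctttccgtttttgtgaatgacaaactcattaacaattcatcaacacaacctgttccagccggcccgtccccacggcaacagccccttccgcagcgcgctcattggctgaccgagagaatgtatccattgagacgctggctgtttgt
Fgfr2: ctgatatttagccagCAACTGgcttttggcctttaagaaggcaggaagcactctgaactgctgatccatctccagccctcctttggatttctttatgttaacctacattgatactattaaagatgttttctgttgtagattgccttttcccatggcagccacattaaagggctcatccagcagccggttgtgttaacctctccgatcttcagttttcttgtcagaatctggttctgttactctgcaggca
The E-box letters searched were CANNTG, whose match on one strand is also a match on the other. Matches started 188 bases before the start of Spry2, 191 before Dusp6 and 235 before Fgfr2. E-boxes were present in 5 of the 6 promoters, all except Fgf9, and in 66.2% of all 32851 mouse promoters of this length. The PEA3 core AGGAAG, the kind of site read by Etv4, was searched on both strands and occurred in the Fgfr2 and Dusp6 promoters, 2 of 6, and in 29.5% of all promoters. Its match began 208 bases before the Fgfr2 start on the gene's strand and 210 bases before the Dusp6 start on the other strand, and neither overlapped an E-box. The Gli motifs GACCACCC and GACCTCCC, searched on both strands, were in none of the 6 windows and in 0.703% and 1.11% of all promoters. A match or its absence describes these letters in these windows only.

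The libraries held 21420197 to 53326697 estimated counts, and levels are given as CPM, the share of a library's scaled total. Hand2 was at 18.2 ± 6.41 CPM (mean ± SD, n = 3) in the Hand2 cKO libraries, below 192 ± 24.5 CPM (n = 2) for WT, and the Gli2/3 cKO library had 58.3 CPM of Gli2 and 80.2 CPM of Gli3 against WT means of 114 and 160 CPM. Hand2 cKO 2 stood apart, since its log2 levels relative to the other libraries fell by 0.23 for each doubling of transcript length, while the slopes of the other 5 libraries lay between -0.06 and 0.11. Erythroid markers (10 genes) reached sums of 12287 CPM in WT 4 and 8132 CPM for Hand2 cKO 2, against 2633 to 3878 CPM in the other 4 libraries. The 14 neural crest mesenchyme markers, the labelled tissue's main cell type, were present in every library at sums of 1814 to 2239 CPM, and the 15 epithelial markers at 412 to 486 CPM. Neural progenitor markers (7 genes) were at 99.4 to 124 CPM in WT, 150 to 160 CPM in the Hand2 cKO libraries and 107 CPM in Gli2/3 cKO. In bulk tissue, fewer cells of a type and less RNA per cell cannot be told apart. The parts of transcript length and of these cell types in the values below were not tested beyond the values given beside them.

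Levels of different genes were compared per transcript length, in TPM, counts divided by transcript length and scaled to one common total. Unlike CPM, TPM did not use the scaled library totals, and its total depends on the transcript lengths in each library. The 2 scales can therefore order libraries differently through the total alone. Fgfr1 led in WT with 166 ± 7.22 TPM (n = 2), followed by Dusp6 at 101 ± 12.4 TPM and Fgfr2 at 101 ± 3.82 TPM, then Etv4 at 58.3 ± 0.622 TPM. Fgf8 at 28.7 ± 0.489 TPM, Spry1 at 25.6 ± 2.79 TPM and Spry2 at 20.7 ± 2.17 TPM formed a middle range. Spry4 at 9.32 ± 2.59 TPM and Fgf10 at 8.42 ± 0.844 TPM lay below them, and Fgf9 was lowest at 2.94 ± 0.454 TPM. The receptors and the ERK phosphatase were thus the most abundant transcripts and the ligands spanned the middle and bottom of the order. Over all 6 libraries the ranges of neighbours were apart only between Etv4 and Fgf8, between Spry2 and Spry4 and between Fgf10 and Fgf9, while those of the other neighbours overlapped. Within each of the 6 libraries, Fgfr1 was also above Dusp6 and Fgfr2 above Etv4, whereas Dusp6 and Fgfr2, Fgf8 and Spry1, Spry1 and Spry2, and Spry4 and Fgf10 did not keep 1 order. The order was the same when each gene was divided by the length of its longest transcript.

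**Figure D1:**
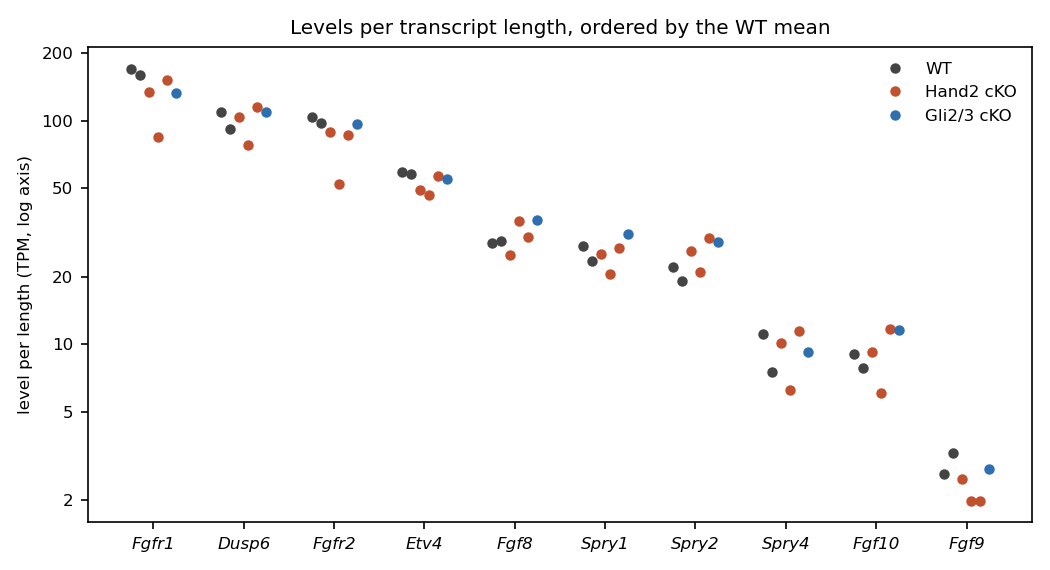
Level per transcript length (TPM, log axis) of the 10 FGF genes in each library, ordered by the WT mean; each point is 1 library, coloured by genotype. Fgfr1 had the highest WT mean (166 TPM) and Fgf9 the lowest (2.94 TPM), with steps between Etv4 and Fgf8, Spry2 and Spry4, and Fgf10 and Fgf9.

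None of the ligands passed the test in either mutant, and Fgf10 was the only one above both WT libraries in all 4 mutant libraries. Among all genes, 15.3% were higher without overlap in Hand2 cKO and 36.6% in Gli2/3 cKO, and the share higher in both was not computed. Fgf8, the epithelial ligand that mesenchyme survival depends on, was at 13.7 and 14.9 CPM in WT, at 13.7, 26.5 and 15.1 CPM in the Hand2 cKO libraries and at 17.6 CPM in Gli2/3 cKO. Only Hand2 cKO 2 was far above the others, and the Hand2 cKO and WT ranges overlapped. The log2 fold change of Fgf8 was 0.37 ± 0.32 (SE) in Hand2 cKO against WT and 0.30 ± 0.42 in Gli2/3 cKO against WT. Without Hand2 cKO 2 the first value was -0.0030. The 95% interval for Hand2 cKO, -0.41 to 1.14, includes a doubling and a decrease, so these libraries exclude neither.

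The sum of the epithelial markers lay at 437 and 451 CPM in WT, at 423, 486 and 420 CPM in the Hand2 cKO libraries and at 412 CPM in Gli2/3 cKO. Relative to 100 CPM of these markers, Fgf8 stood at 3.12 and 3.30 in WT, 3.23, 5.45 and 3.59 in Hand2 cKO and 4.27 in Gli2/3 cKO, so Hand2 cKO 2 was also the highest on this scale. Of the Fgf8 counts, the share in transcripts with the longer form of an alternative exon was 63.6% and 50.5% in WT, 65.2%, 63.8% and 60.9% in Hand2 cKO and 60.1% in Gli2/3 cKO, with 1 WT library lower than the rest.

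Fgf9, the other epithelial ligand, was scarce, at 2.73 and 3.32 CPM in WT, 3.16, 3.19 and 2.26 CPM in the Hand2 cKO libraries and 2.98 CPM in Gli2/3 cKO. The ranges of WT and the mutants overlapped, with log2 fold changes of -0.07 ± 0.27 for Hand2 cKO and -0.01 ± 0.37 for Gli2/3 cKO. Fgf10, the mesenchymal ligand, was at 17.0 and 16.4 CPM in WT, 19.8, 17.8 and 23.3 CPM in the Hand2 cKO libraries and 22.7 CPM in Gli2/3 cKO. All 4 mutant libraries lay above both WT libraries, and the log2 fold changes were 0.28 ± 0.18 (95% interval -0.15 to 0.71) and 0.44 ± 0.23 (-0.12 to 1.01). In TPM, with its unscaled and length-dependent total, the ordering of Fgf10 did not hold for Hand2 cKO 2. That library, at 6.07 TPM, lay below the WT values of 9.02 and 7.82 TPM. Over all alternative fits the Fgf10 log2 fold change in Hand2 cKO stayed between 0.17 and 0.38.

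The receptors were lower in every mutant library than in both WT libraries, by margins that did not pass the test. Fgfr1, the main mesenchymal FGF receptor, was at 273 and 241 CPM in WT, 239, 217 and 235 CPM in the Hand2 cKO libraries and 222 CPM in Gli2/3 cKO. The gap between the lowest WT library and the highest Hand2 cKO library was small, and the log2 fold changes were -0.16 ± 0.15 for Hand2 cKO and -0.21 ± 0.20 for Gli2/3 cKO. Fgfr2 was at 138 and 145 CPM in WT, 125, 92.9 and 116 CPM in the Hand2 cKO libraries and 121 CPM in Gli2/3 cKO. Its log2 fold changes were -0.35 ± 0.18 (95% interval -0.78 to 0.08) in Hand2 cKO and -0.23 ± 0.24 (-0.82 to 0.35) in Gli2/3 cKO. Hand2 cKO 2, the library whose levels fell most with transcript length, was the lowest for both receptors. Their transcripts had mean lengths of 3823 bases (Fgfr1) and 3436 bases (Fgfr2). Over all alternative fits, removal of the length trend among them, the Fgfr1 log2 fold change in Hand2 cKO lay between -0.24 and -0.05. That of Fgfr2 lay between -0.72, in the fit without the transcript Fgfr2-217 described below, and -0.24. The part of length in these decreases was not tested beyond these fits.

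The IIIb and IIIc forms of these receptors carry alternative exons for the third immunoglobulin domain, and by textbook knowledge epithelium makes IIIb, which binds FGF10, and mesenchyme makes IIIc, which binds FGF8 and FGF9. In GENCODE M21 coordinates (mm10), the Fgfr1 IIIb exon is chr8:25563374-25563524 and its IIIc exon chr8:25564340-25564484, and the Fgfr2 IIIb exon is chr7:130199758-130199905 and its IIIc exon chr7:130198419-130198563. Of the Fgfr1 counts assigned to transcripts with either exon, IIIb took 3.28% and 19.6% in WT, 4.68%, 31.7% and 3.76% in the Hand2 cKO libraries and 7.70% in Gli2/3 cKO. The high values were in WT 4 and Hand2 cKO 2, the only libraries whose levels declined with transcript length, and the genotypes overlapped. For Fgfr2 the IIIb share was 40.2% and 22.8% in WT, 35.7%, 43.7% and 45.4% in Hand2 cKO and 39.7% in Gli2/3 cKO. Both receptors were thus mostly IIIc by this estimate, Fgfr2 with more IIIb than Fgfr1 in each of the 6 libraries, and neither share separated the genotypes. Reads outside these exons are shared between the forms, so the split is an estimate by the authors' software. Transcripts with either exon held 71.9% and 65.5% of the Fgfr2 counts in WT. They held 56.8%, 29.2% and 66.3% in the Hand2 cKO libraries and 60.8% in Gli2/3 cKO, so the Fgfr2 shares rest on unequal parts of the gene.

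An Fgfr2 transcript without either exon differed from WT in the opposite direction to the whole gene. Fgfr2-217 has 7 exons, of which the first 2 lie 2.91 Mb upstream of the other 5 on the minus strand of chromosome 7, its first exon being chr7:133123141-133123350. It was assigned 6.59 and 4.69 CPM in WT, 19.9, 55.5 and 11.3 CPM in the Hand2 cKO libraries and 22.3 CPM in Gli2/3 cKO, so every mutant library lay above both WT libraries. This was 4.76% and 3.23% of the Fgfr2 counts in WT, 15.9%, 59.7% and 9.70% in Hand2 cKO and 18.5% in Gli2/3 cKO. With it left out, Fgfr2 stood at 132 and 140 CPM in WT, 105, 37.4 and 105 CPM in the Hand2 cKO libraries and 98.3 CPM in Gli2/3 cKO. The log2 fold changes were then -0.72 ± 0.43 for Hand2 cKO and -0.47 ± 0.60 for Gli2/3 cKO, larger in size but with wider errors, and they did not pass the test. This transcript was singled out after its values had been seen, and the reads behind it were not examined here. Since it held a larger share of the Fgfr2 counts in every mutant library, leaving it out had to enlarge the decrease. The refit therefore adds no evidence of lower Fgfr2. Nor was Fgfr2-217 alone, since Fgfr2-204 and Fgfr1-203 also lay above both WT libraries in every mutant library. Other receptor transcripts, such as Fgfr2-208, lay below both WT libraries in every Hand2 cKO library. The share of all transcripts that separate in this way was not computed.

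**Figure D2:**
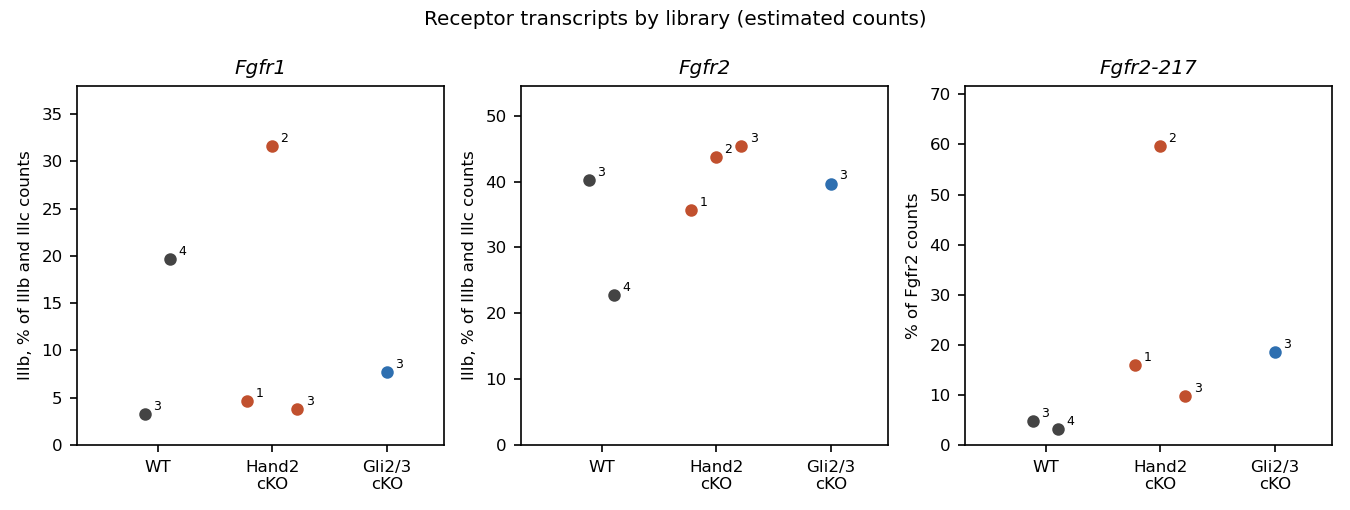
Estimated IIIb share of Fgfr1 (left) and Fgfr2 (middle) in percent of the counts of transcripts with the IIIb or IIIc exon, and Fgfr2-217 in percent of Fgfr2 counts (right); each point is 1 library, numbered by replicate. The Fgfr1 IIIb share was high in WT 4 (19.6%) and Hand2 cKO 2 (31.7%), and Fgfr2-217 lay at 9.70% or more in each mutant library against 3.23% and 4.76% in WT.

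Among the feedback genes, Spry2 was higher in both mutants and the other 4 genes differed less. Spry2, an inhibitor of the relay below the receptors, was at 21.8 and 20.4 CPM in WT, 28.4, 31.7 and 30.7 CPM in the Hand2 cKO libraries and 29.8 CPM in Gli2/3 cKO. The 4 mutant libraries lay close together and all above WT. In Hand2 cKO the level was 1.43 times that of WT, a log2 fold change of 0.52 ± 0.14 (95% interval 0.17 to 0.87) with an unadjusted edgeR p of 0.0110 and an adjusted p of 0.700. Over the alternatives run the adjusted p ranged from 0.191, with DESeq2, to 0.953. In Gli2/3 cKO the level was 1.41 times that of WT, a log2 fold change of 0.50 ± 0.19 (0.04 to 0.95) with an unadjusted p of 0.0383 and an adjusted p of 1. The Spry2 value in Hand2 cKO stayed between 0.47 and 0.58 on the log2 scale over all alternatives, including the removal of each library and of the length trend. In TPM, Hand2 cKO 2 was at 21.1 TPM, within the WT range of 19.2 to 22.3 TPM, while the other 3 mutant libraries were at 26.1 to 29.8 TPM. Spry2 has 1 listed transcript, so its own length cannot reorder the libraries. This shift between CPM and TPM comes from the library total each scale divides by. The TPM total sums counts divided by transcript length, so it also carries the length make-up of each library. Hand2 cKO 2 had the strongest trend against transcript length, and the part of length in this shift was not tested.

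Dusp6, the ERK phosphatase, was at 113 and 86.0 CPM in WT, 122, 128 and 125 CPM in the Hand2 cKO libraries and 124 CPM in Gli2/3 cKO. The mutant libraries were tightly grouped above both WT libraries, which differed from each other more than the mutants did. The log2 fold change was 0.33 ± 0.17 (95% interval -0.09 to 0.74) in Hand2 cKO, and it was 0.15 without WT 4 and 0.54 without WT 3. In Gli2/3 cKO it was 0.32 ± 0.22, with 0.14 and 0.53 without the same libraries. TPM divides by an unscaled total that also depends on transcript length. On that scale the mean of Dusp6 in Hand2 cKO, 99.2 ± 19.1 TPM, was below the WT mean of 101 ± 12.4 TPM. Its direction thus depended on the scale. In the fits the Dusp6 log2 fold change in Hand2 cKO stayed between 0.15 and 0.54 over all alternatives, including removal of the length trend.

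Spry1 was at 32.5 and 30.2 CPM in WT, 33.1, 37.0 and 33.5 CPM in the Hand2 cKO libraries and 38.5 CPM in Gli2/3 cKO. Both mutants lay just above WT, with log2 fold changes of 0.14 ± 0.14 and 0.30 ± 0.18, and in TPM the Hand2 cKO mean of 24.4 ± 3.27 TPM was below the WT mean. Over all alternative fits the Spry1 value in Hand2 cKO stayed between 0.07 and 0.21. Spry4 was at 24.9 and 18.1 CPM in WT, 25.2, 21.4 and 27.0 CPM in the Hand2 cKO libraries and 21.8 CPM in Gli2/3 cKO. Its groups overlapped, with log2 fold changes of 0.19 ± 0.20 and 0.01 ± 0.27. Etv4, the ERK-responsive transcription factor gene, was at 46.2 and 47.4 CPM in WT, 43.9, 63.5 and 44.4 CPM in the Hand2 cKO libraries and 46.2 CPM in Gli2/3 cKO. Hand2 cKO 2 alone was high, and the log2 fold change of 0.11 ± 0.20 in Hand2 cKO was -0.10 without it. In TPM all 4 mutant libraries, at 46.7 to 56.5 TPM, lay below the WT values of 58.8 and 57.9 TPM, so the direction for Etv4 also depended on the scale.

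**Figure D3:**
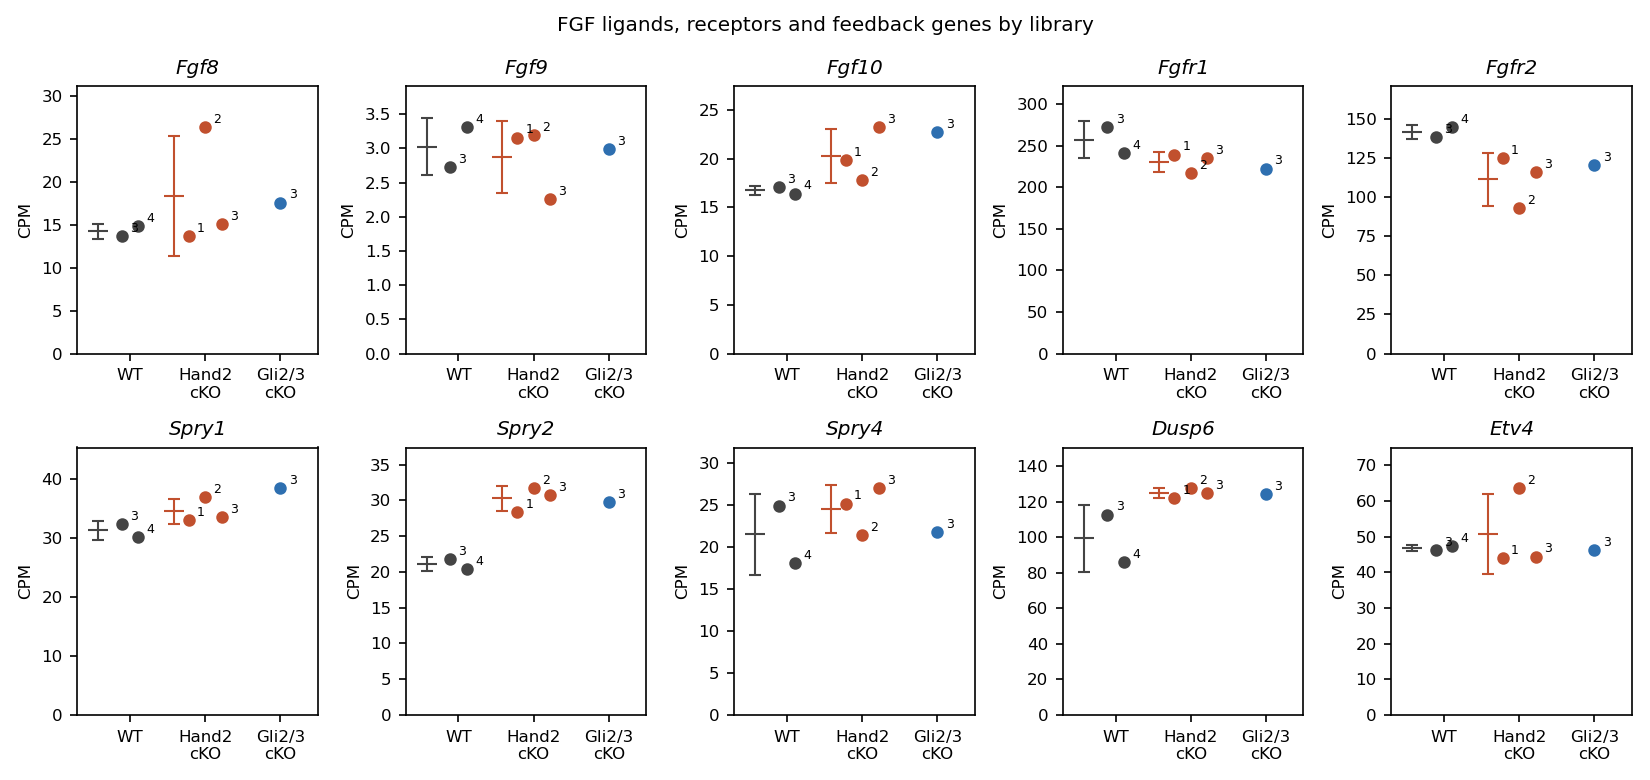
Level in CPM (linear axes from 0) of the 10 FGF genes in each library, numbered by replicate, and bars to the left of the WT (n = 2) and Hand2 cKO (n = 3) points give the mean and SD. Spry2 lay at 28.4 to 31.7 CPM in the 4 mutant libraries against 20.4 and 21.8 CPM in WT, and Fgf8 and Etv4 were high in Hand2 cKO 2 only.

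In Hand2 cKO against WT, 0 of the 10 genes were called by edgeR's quasi-likelihood test (adjusted p under 0.05 and fold above 1.5), where 0% of all genes were called higher and 0.0114% lower. DESeq2 also called 0 of 10, against 0.208% of genes higher and 0.875% lower. With an unadjusted edgeR p below 0.05, 1 of 10 was higher (Spry2) and 0 were lower, against 2.44% and 4.02% of all genes. Without overlap between the groups, 4 of 10 were higher (Dusp6, Fgf10, Spry1 and Spry2), against a background of 15.3%, and 2 of 10 were lower (Fgfr1 and Fgfr2), against 15.7%. The median log2 fold change of the 10 genes was 0.16, beside -0.00012 over all genes, and it was 0.04 without Hand2 cKO 2. The length-corrected median was 0.26. By role the medians were 0.28 for the ligands, -0.25 for the receptors and 0.19 for the feedback genes and Etv4.

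In Gli2/3 cKO against WT the single mutant library borrowed its spread from the other groups, so its differences have no replicate check. EdgeR and DESeq2 called 0 of 10 genes, against 0% higher and 0.0114% lower of all genes by edgeR and 0.109% and 0.618% by DESeq2. With an unadjusted edgeR p below 0.05, 1 of 10 was higher (Spry2) and 0 lower, against 1.63% and 2.96%. Without overlap, 5 of 10 were higher (Dusp6, Fgf8, Fgf10, Spry1 and Spry2) against 36.6% of all genes, and 2 of 10 were lower (Fgfr1 and Fgfr2) against 33.7%, so the count of lower genes was below the background share. The median was 0.15 for the 10 genes and 0.00 for all genes. Both mutants were compared with the same WT libraries, so their values are set side by side and not counted as separate evidence.

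Between the mutants, Gli2/3 cKO against Hand2 cKO, the log2 fold changes of the 10 genes lay from -0.17 (Spry4) to 0.16 (Fgf10). EdgeR and DESeq2 called 0 of 10, against 0.0172% of genes in each direction by edgeR and 0.278% higher and 0.704% lower by DESeq2. With an unadjusted edgeR p below 0.05 there were 0 of 10, against 2.86% higher and 2.63% lower. Only Spry1 was higher without overlap, 1 of 10 against 28.7%, and 0 of 10 were lower against 27.2%. For Spry2 the difference was -0.02 ± 0.18 with a 95% interval of -0.46 to 0.42, which leaves room for a difference in either direction.

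**Figure D4:**
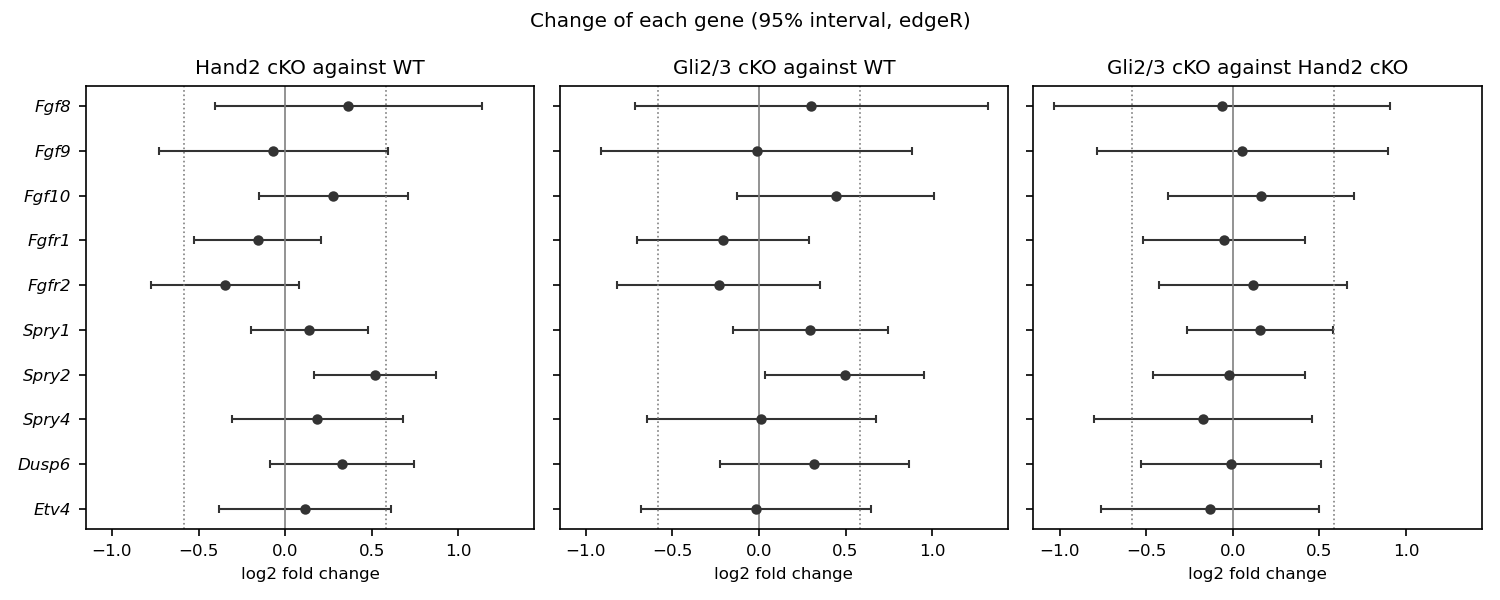
Log2 fold change of each of the 10 FGF genes (points) with its 95% interval from edgeR (bars) in the 3 comparisons, with dotted lines at a fold of 1.5 in each direction. Only the Spry2 intervals in both mutants against WT lie above 0 (0.17 to 0.87 and 0.04 to 0.95), and no gene passed the adjusted test.

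Beyond these genes, 6 lists of pathway genes were read, and edgeR called 0 of their genes in any comparison. In Hand2 cKO against WT, 1 of the 80 list genes tested was higher with an unadjusted p below 0.05 (Myc), where 2.44% of all genes were, and 4 of 80 were lower (Fgf15, Fgfr3, Sulf2 and Pitx1), where 4.02% were, so these counts were near the background. DESeq2 called 0 of the list genes. Of 19 other ligands 12 passed the filter, and Fgf4 and Fgf21 were at 0 in every library. Fgf15, an early embryonic ligand, was near the limit of detection, with 0.390 and 0.619 CPM in WT against 0.0567, 0.0528 and 0.217 CPM in Hand2 cKO. Fgf2, a broadly made ligand, was at 3.60 and 3.67 CPM in WT and 3.91 to 5.54 CPM in the 4 mutant libraries, all above WT.

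Of the 5 other receptors and co-receptors, Fgfr3, the receptor known for restraining cartilage growth, was at 13.3 and 15.8 CPM in WT, 10.1, 7.10 and 11.1 CPM in the Hand2 cKO libraries and 10.6 CPM in Gli2/3 cKO. It was lower in all 4 mutant libraries, with log2 fold changes of -0.63 ± 0.24 (unadjusted p of 0.0377) and -0.46 ± 0.33. Fgfr4, the remaining receptor kinase of the family, was at 1.52 and 1.06 CPM in WT, 1.15 to 1.54 CPM in the Hand2 cKO libraries and 1.61 CPM in Gli2/3 cKO. That 1 library lay above both WT libraries for Fgfr4, as it did for 36.6% of all genes. Among 18 relay genes, Nras, a Ras gene, had the smallest p in Hand2 cKO with a log2 fold change of 0.36 ± 0.17, and Frs3, a receptor adaptor, in Gli2/3 cKO with -0.58 ± 0.29, and 0 of 18 were under an unadjusted 0.05 in either.

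Of 19 heparan sulphate genes, Sulf2, which trims sulphate from the co-receptor chains, was at 429 and 431 CPM in WT against 326, 264 and 335 CPM in the Hand2 cKO libraries, with a log2 fold change of -0.48 ± 0.17 with an unadjusted p of 0.0292 and an adjusted p of 0.723. Its close relative Sulf1 was at 69.0 and 65.7 CPM in WT, 110, 71.9 and 109 CPM in the Hand2 cKO libraries and 56.6 CPM in Gli2/3 cKO. In Gli2/3 cKO, 14 of the 19 lay below both WT libraries, against 33.7% of all genes, with a list median of -0.20, beside 0.07 in Hand2 cKO. This count rests on 1 mutant library. In the same comparison 5 of 12 other ligands and 4 of 5 other receptors and co-receptors were lower without overlap. So were 6 of 18 relay genes, 4 of 18 other feedback genes and targets and 3 of 8 FGF8-responsive genes. Sdc2, a syndecan core protein gene, was at 23.7 CPM in Gli2/3 cKO against 44.9 and 29.0 CPM in WT.

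Among 18 other feedback genes and targets, the medians were 0.01 for Hand2 cKO and 0.08 for Gli2/3 cKO. Myc, a growth factor-induced transcription factor gene, was at 24.8 and 32.5 CPM in WT, 33.3, 52.0 and 43.0 CPM in the Hand2 cKO libraries and 46.0 CPM in Gli2/3 cKO. Its log2 fold changes were 0.58 ± 0.24 and 0.68 ± 0.30. Dusp5, a nuclear ERK phosphatase gene, was at 4.44 and 6.06 CPM in WT against 6.30, 9.53 and 6.98 CPM in Hand2 cKO. Etv5, a close relative of Etv4, was at 89.9 and 97.2 CPM in WT, 86.4, 74.8 and 95.3 CPM in the Hand2 cKO libraries and 101 CPM in Gli2/3 cKO, with no separation of WT from Hand2 cKO.

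Of the 8 genes of arch mesenchyme known to respond to FGF8, 0 were called against WT in either mutant by edgeR or DESeq2, and their fold changes had both signs. Barx1, a molar-field homeobox gene, was at 179 and 119 CPM in WT, 211, 343 and 189 CPM in the Hand2 cKO libraries and 153 CPM in Gli2/3 cKO, with a log2 fold change of 0.73 ± 0.33 in Hand2 cKO. Lhx8, a LIM homeobox gene of oral mesenchyme, was at 99.6 and 93.8 CPM in WT, 116, 148 and 116 CPM in the Hand2 cKO libraries and 136 CPM in Gli2/3 cKO, with log2 fold changes of 0.39 ± 0.17 and 0.49 ± 0.23. Pitx1, a mandibular homeobox gene, was at 253 and 193 CPM in WT against 140, 186 and 130 CPM in the Hand2 cKO libraries, with a log2 fold change of -0.55 ± 0.22 with an unadjusted p of 0.0463. The list median was 0.33 for Hand2 cKO and 0.08 for Gli2/3 cKO.

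In Gli2/3 cKO against WT, 0 of the 80 list genes were higher and 2 were lower with an unadjusted p below 0.05, where 1.63% and 2.96% of all genes were, again near the background. DESeq2 called 0 of them. Fgf11, an intracellular member of the family, was at 0.689 CPM against 2.20 and 1.95 CPM in WT, a log2 fold change of -1.59 ± 0.43. Pax9, a tooth-field gene, was at 2.72 CPM against 10.8 and 4.33 CPM in WT and 16.2, 10.5 and 14.4 CPM in Hand2 cKO. Its log2 fold change was -1.48 ± 0.60 against WT, where the WT libraries differed from each other by more than 2-fold, and -2.33 ± 0.61 against Hand2 cKO, with an edgeR adjusted p of 0.672. DESeq2 called Pax9 lower in the latter comparison, and it called 0 of the other list genes.

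**Figure D5:**
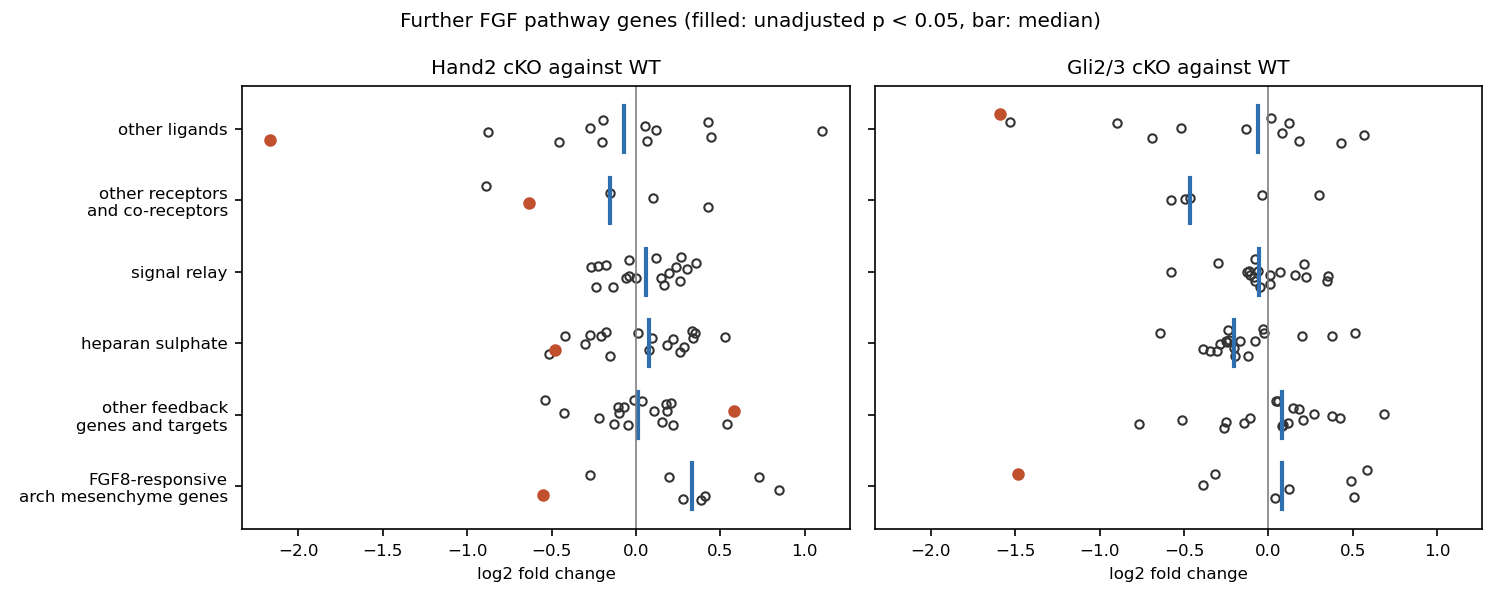
Log2 fold change of every tested gene of 6 further FGF pathway lists (rows) in Hand2 cKO (left) and Gli2/3 cKO (right) against WT; circles are genes, filled where the unadjusted edgeR p is under 0.05, and bars are list medians. The list medians lie between -0.46 (other receptors in Gli2/3 cKO) and 0.33 (FGF8-responsive genes in Hand2 cKO).

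The genes most like Fgf8 and Etv4 over the 6 libraries were sought among 10456 genes. For Fgf8 they included Ccdc138, Cradd, Tmem29 and Asl, with Pearson's r from 0.991 to 0.996. For Etv4 they were Anapc11, Zfp787, Xrcc1, Rnf126 and Flcn, with r from 0.994 to 0.997. All of these genes, like Fgf8 and Etv4 themselves, were highest in Hand2 cKO 2, the library with the trend against transcript length, and 6 points dominated by 1 library give these correlations as a description only.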

How the data were processed

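Bulk polyA RNA-seq of E10.5 MNPs was analysed in 6 libraries, and 4 labelled samples were not analysed here. The authors aligned 150 bp paired-end reads to mm10 and quantified transcripts in Strand NGS, and the deposited values are estimated counts per transcript, of which 47.7% to 56.8% per library were not whole (tolerance 0.01). The study named DESeq2, a fold above 1.5 and an adjusted p under 0.05. Here, estimated counts were summed by gene symbol and rounded. Genes with low counts were removed (17477 kept), libraries were scaled by TMM, and all 3 genotypes were fitted together with edgeR 4.0.16 (quasi-likelihood test, R 4.3.3, Benjamini-Hochberg adjustment, residual df 3), with DESeq2 1.42.0 as an alternative. With few libraries per group, 2, 3 and 1, precision is set by replicate spread rather than by the depth of 21420197 to 53326697 counts. CPM used TMM-scaled totals and TPM did not. TPM divided each transcript's count by its GENCODE M21 length, which was matched for 103635 of 105129 transcripts. Scripts were tested on simulated data. Genes, lists and tests were chosen with earlier results of these data known. From each further list, the 3 genes with the smallest p per comparison could be named, and the text names some of them. Fgfr2-217 was named after its values were seen. One gene like Fgf8 over the libraries is not reported here. Alternatives were DESeq2, no filter, relative log expression and upper-quartile scaling, removal of the length trend, the 2 groups alone, each replicate left out, protein-coding transcripts only and longest-transcript lengths. The 2 alternatives on Fgfr2-217 and the Fgf8 exon were added after seeing the data.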

Additional observations from a re-analysis of the deposited data

How the results depend on the processing

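Of the 10 FGF genes, 0 were called under any alternative. Of 111 alternative log2 fold changes per comparison, the direction and side of the threshold were kept in 105 (Hand2 cKO against WT), 106 (Gli2/3 cKO against WT) and 102 (between the mutants), and 6, 5 and 9 changed sign, Fgf8, Fgf9, Spry4 and Etv4 in Hand2 cKO, Fgf9, Spry4 and Etv4 in Gli2/3 cKO, and Fgf8, Fgf9, Spry2, Dusp6 and Etv4 between the mutants. No paired analysis was possible because the groups share only replicate number 3. The counts of all genes called, against 0 higher and 2 lower (Hand2 cKO), 0 and 2 (Gli2/3 cKO) and 3 and 3 (between the mutants), were 35 and 147, 19 and 108, and 41 and 104 with DESeq2. With no filter they were 6 and 39, 8 and 13, and 19 and 20. With the length trend removed they were 7 and 38, 2 and 6, and 15 and 14. In fits of the 2 groups alone, Gli2/3 cKO gave 18 and 39 and the mutants 11 and 9, while upper-quartile scaling gave 1 lower in Hand2 cKO. Leaving out 1 library gave 0 to 7 higher and 0 to 35 lower (Hand2 cKO, with 35 lower without Hand2 cKO 2 and 0 without WT 4), 0 to 4 and 0 to 11 (Gli2/3 cKO), and 1 to 11 and 1 to 13 (between the mutants).

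The median over the 10 genes in Hand2 cKO was 0.26 with the length trend removed and 0.0357 to 0.25 with 1 library left out, against 0.13 to 0.25 in Gli2/3 cKO and -0.0264 to 0.0396 between the mutants. With the length trend removed, Fgf9 was 0.0161 in Hand2 cKO, Spry4 was -0.0023 in Gli2/3 cKO, and between the mutants Fgf8 was 0.0198 and Fgf9 was -0.0249. Upper-quartile scaling gave 0.0079 for Spry2 and 0.0232 for Dusp6 between the mutants. Leaving out 1 library gave, in Hand2 cKO against WT, -0.0030 to 0.54 for Fgf8, -0.21 to 0.0759 for Fgf9, -0.0234 to 0.44 for Spry4 and -0.10 to 0.20 for Etv4. In Gli2/3 cKO it gave -0.15 to 0.13 for Fgf9, -0.20 to 0.26 for Spry4 and -0.0355 to 0.00099 for Etv4. Between the mutants it gave -0.24 to 0.30 for Fgf8, -0.0898 to 0.14 for Fgf9, -0.0711 to 0.0116 for Spry2, -0.0266 to 0.0086 for Dusp6 and -0.23 to 0.0675 for Etv4. The cause was not tested. When a WT library or another was left out, a lone sample was assumed to vary like the other groups. Few libraries, and 1 in Gli2/3 cKO, limit what can be called.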
